A study of Mus musculus with 11 samples.

Results

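Endoderm transcription factors were followed in the tailbud of mouse embryos at embryonic day 8.5. The 8 genes are Hnf4a, Gata4, Gata6, Sox7, Foxa1, Foxa3, Sox17 and Hhex. They were taken by gene name from a table of 56748 genes, each name occurred once, and 8 of 8 had enough counts to be tested among 16572 genes. The libraries were made from polyA RNA of microdissected tailbud: 4 of wild-type genotype (WT), 3 homozygous for the allele Fgfr1 FCPG and 4 homozygous for Fgfr1 FCSPG. Both alleles are lines with point mutations at the sites where the receptor FGFR1 binds its effectors, and the series was made to follow transcription during mesoderm development when such signalling is lost. Strain, and whether a library came from 1 embryo or a pool, are not given in the sources used here, so p-values measure the spread between libraries only. Libraries are named by the number in their column name.

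The endoderm of a mouse embryo has a pair of origins. The visceral endoderm is an extraembryonic epithelium that surrounds the early embryo and later lines the yolk sac, where it takes up and secretes nutrients. The definitive endoderm leaves the primitive streak at gastrulation, intercalates with visceral endoderm cells, and forms the gut tube, whose hindgut ends below the tailbud. GATA factors and SOX17 act early in both layers, HNF4A drives the secretory programme of the visceral endoderm, and the FOXA factors open chromatin at gut genes. From such textbook knowledge 4 members were classed as shared with visceral endoderm (Hnf4a, Gata4, Gata6, Sox7) and 4 as definitive endoderm factors (Foxa1, Foxa3, Sox17, Hhex). The classes are not exclusive, because Sox17 and Hhex are also known from visceral endoderm, and Sox7, Sox17 and Hhex from endothelium.

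Total counts ranged from 16014698 to 25453070 per library. Levels per library are given as CPM (counts scaled to the size of the library). Fgfr1 averaged 192 ± 18.8 CPM (SD, n = 4) in WT, while the 3 FCPG libraries averaged 201 ± 35.5 CPM (SD) and the 4 FCSPG libraries 190.5 ± 39.4 CPM (SD), which does not test the point mutations. All 10 markers of tailbud tissue, T and Tbx6 among them, had counts in each library. Their summed level was 560.4 to 794 CPM in WT and 576 to 977 CPM in FCSPG, but 97.9 CPM in FCPG library 45 against 526 and 835 CPM in FCPG libraries 46 and 19. The labels give the tissue as tailbud mesoderm with neuromesodermal progenitors (NMPs), yet 20 markers of visceral endoderm summed to 181 to 1276 CPM in WT, 1734 to 17406 CPM in FCPG and 865 to 3927 CPM in FCSPG. Of these markers, Apoc2 was at 0 in 4 of 11 libraries and Apoa4 in 1, and the others had counts in each. Y-linked counts, which mark male embryos, were present in FCPG libraries 19 and 45 and in FCSPG library 32 and at 0 in the other 8 libraries.

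**Figure D1:**
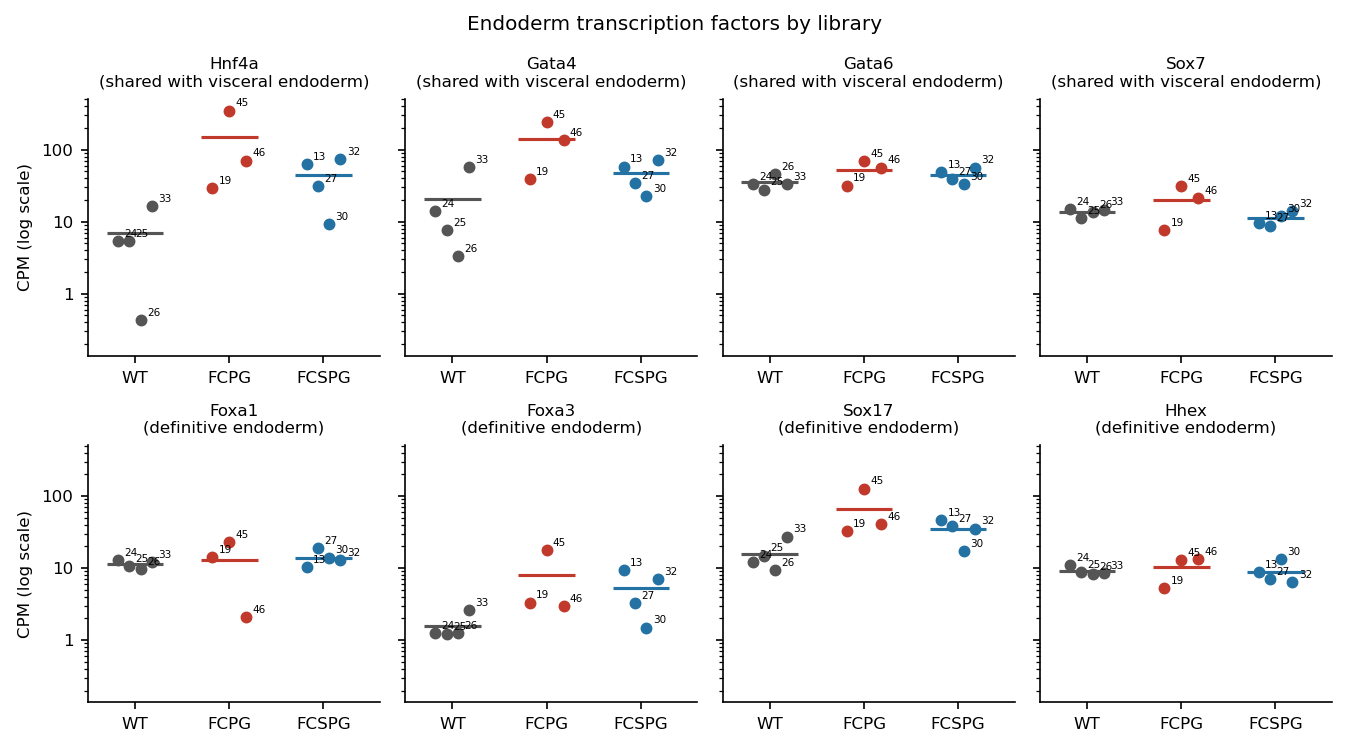
CPM of each member on a log axis by group, with 1 point per library, the library number beside it and a line at the group mean. Hnf4a, Gata4, Sox17 and Foxa3 spread widely, with the highest point in FCPG library 45, whereas Foxa1, Hhex and Sox7 stay near 10 CPM in most libraries. Exceptions are Foxa1 at 2.07 CPM in FCPG library 46 and 22.7 CPM in FCPG library 45. Sox7 is at 31.2 and 21.4 CPM in FCPG libraries 45 and 46.

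The bases before the start of 4 transcripts are shown, because Hnf4a has a pair of starts that a count per gene cannot separate, and because the paralogues Foxa1 and Foxa3 differed across these libraries. Sequences are the 250 bases upstream of each start, 5′ to 3′ on the gene's strand, from RefSeq on build GRCm38.p6, a different build from the mm39 of the counts. A promoter was found for 4 of 8 members. The upstream Hnf4a start and the Foxa1 start were found in transcripts of another annotation, GENCODE. The downstream Hnf4a start and the Foxa3 start were not found there. Both strands were searched for the GATA motif AGATAA, for the forkhead motif of the FOXA factors, TGTTTAC, for the HNF4 motif CAAAGTCCA and for the SOX motif AACAAT, and capitals mark the matches, which did not overlap.
Hnf4a upstream start, plus strand, chr2:163506607-163506856: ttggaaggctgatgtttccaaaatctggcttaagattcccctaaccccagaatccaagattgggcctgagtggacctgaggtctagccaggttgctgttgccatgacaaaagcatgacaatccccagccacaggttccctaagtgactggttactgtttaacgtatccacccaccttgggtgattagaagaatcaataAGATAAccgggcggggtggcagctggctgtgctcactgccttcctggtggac
Hnf4a downstream start, plus strand, chr2:163546905-163547154: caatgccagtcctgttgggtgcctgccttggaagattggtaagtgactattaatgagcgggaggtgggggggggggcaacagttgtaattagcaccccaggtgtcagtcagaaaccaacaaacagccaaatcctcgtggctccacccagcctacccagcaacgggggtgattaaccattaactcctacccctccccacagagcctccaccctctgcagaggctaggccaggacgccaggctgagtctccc
Foxa1, minus strand, chr12:57546112-57546361: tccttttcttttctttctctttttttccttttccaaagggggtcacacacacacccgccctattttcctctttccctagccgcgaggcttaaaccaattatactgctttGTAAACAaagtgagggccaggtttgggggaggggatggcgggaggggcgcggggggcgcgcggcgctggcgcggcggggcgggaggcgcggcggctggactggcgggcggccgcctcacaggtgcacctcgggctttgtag
Foxa3, minus strand, chr7:19023540-19023789: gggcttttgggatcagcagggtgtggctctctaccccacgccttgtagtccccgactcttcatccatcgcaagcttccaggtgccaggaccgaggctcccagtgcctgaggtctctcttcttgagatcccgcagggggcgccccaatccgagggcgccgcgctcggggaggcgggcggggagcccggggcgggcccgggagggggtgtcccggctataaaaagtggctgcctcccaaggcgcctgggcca
The upstream Hnf4a window held 1 GATA match, 52 bases before the start, and the Foxa1 window 1 FOXA match, 141 bases before the start. Among 32851 promoter windows of this length, 9.99% held the GATA letters, 3.17% the FOXA letters, 0.384% the HNF4 letters and 9.42% the SOX letters. The other windows shown held none of these letters.

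Hnf4a (ENSMUSG00000017950, mm39 chromosome 2, 163348728 to 163414830) encodes a nuclear receptor that activates genes for apolipoproteins and other secreted proteins. WT libraries 24, 25, 26 and 33 held 5.34, 5.35, 0.43 and 16.6 CPM. FCPG libraries 19, 45 and 46 held 29.0, 347 and 70.3 CPM, and FCSPG libraries 13, 27, 30 and 32 held 62.2, 30.8, 9.29 and 74.4 CPM. Every FCPG library was above every WT library, while FCSPG library 30 lay within the WT range. The mean was 6.93 ± 6.85 CPM (SD, n = 4) in WT and 149 ± 173 CPM (SD, n = 3) in FCPG, which differed by 4.43 ± 1.08 (SE) as a log2 fold change, and edgeR's adjusted p over all tested genes was 0.104. FCSPG averaged 44.2 ± 29.6 CPM (SD, n = 4), higher than WT by 2.68 ± 0.99 (SE) on the log2 scale with an edgeR adjusted p of 0.446. Without FCPG library 45, FCPG over WT was 2.84 ± 0.95 (SE). In bulk tissue, more cells of a type and more RNA per cell cannot be told apart. The gene's antisense neighbour Hnf4aos had 19 counts in all libraries together, against 11469 for Hnf4a.

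Gata4 (ENSMUSG00000021944, chromosome 14, 63436371 to 63509141) encodes a zinc finger factor needed for visceral endoderm function and for the ventral folding of the embryo, and it is also made in cardiac mesoderm. It held 14.0, 7.56, 3.31 and 56.7 CPM in WT libraries 24, 25, 26 and 33, and 39.3, 242 and 136 CPM in FCPG libraries 19, 45 and 46. FCSPG libraries 13, 27, 30 and 32 held 58.1, 34.6, 22.6 and 71.6 CPM. The groups overlapped because WT library 33 stood above FCPG library 19 and above FCSPG libraries 27 and 30. The log2 fold change was 2.77 ± 0.85 (SE) for FCPG over WT and 1.20 ± 0.78 (SE) for FCSPG over WT, with edgeR adjusted p of 0.119 and 0.556.

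Gata6 (ENSMUSG00000005836, chromosome 18, 11052064 to 11085635), which specifies primitive endoderm and is also made in lateral and cardiac mesoderm, varied far less. It held 27.7 to 46.2 CPM in WT, 31.6 to 69.1 CPM in FCPG and 33.1 to 56.1 CPM in FCSPG. WT library 26, the lowest for Hnf4a and Gata4, was the highest WT library for Gata6. Gata6 had a log2 fold change of 0.57 ± 0.27 (SE) for FCPG and 0.32 ± 0.25 (SE) for FCSPG over WT (edgeR adjusted p = 0.243 and 0.617). An antisense gene, Gata6os, overlaps it and had 671 counts in all against 9112 for Gata6. The library kit keeps strand, per the labels, but whether the counting used it is not given in the sources used here.

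Sox7 (ENSMUSG00000063060, chromosome 14, 64181122 to 64188181) encodes an SRY-related factor of primitive and parietal endoderm and of blood vessels. It held 11.2 to 14.8 CPM in the 4 WT libraries, 7.70, 31.2 and 21.4 CPM in FCPG libraries 19, 45 and 46, whereas FCSPG libraries ranged from 8.80 to 13.9 CPM. FCPG library 19 was below every WT library and the other FCPG libraries were above every WT library. Against WT the log2 fold change was 0.57 ± 0.36 (SE) in FCPG and −0.29 ± 0.34 (SE) in FCSPG, with edgeR adjusted p of 0.378 and 0.744. FCSPG against FCPG gave −0.86 ± 0.36 (SE), with an edgeR adjusted p of 0.435. Endothelial markers differed between the same FCPG libraries, with a sum over 16 genes of 319 CPM in library 19, 754 CPM in library 45 and 705 CPM in library 46, and their part in the Sox7 values was not tested.

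Sox17 (ENSMUSG00000025902, chromosome 1, 4561154 to 4567577), required to form definitive endoderm, followed Hnf4a more than its paralogue Sox7. It held 12.1, 14.9, 9.38 and 27.3 CPM in WT libraries 24, 25, 26 and 33, and 32.3, 127 and 41.2 CPM in FCPG libraries 19, 45 and 46. FCSPG libraries 13, 27, 30 and 32 held 46.2, 38.5, 17.4 and 35.4 CPM. FCPG and WT did not overlap, and of the FCSPG libraries all but library 30 were above every WT library. FCPG exceeded WT by 2.07 ± 0.51 (SE) on the log2 scale, with an edgeR adjusted p of 0.104, and FCSPG exceeded WT by 1.11 ± 0.47 (SE), with an edgeR adjusted p of 0.446. In the authors' deposited table, from DESeq2, Sox17 had log2 fold changes of 2.08 for FCPG (adjusted p = 0.00375) and 1.11 for FCSPG (adjusted p = 0.0481). The FCSPG call was not made by DESeq2 here, with an adjusted p of 0.0546 on the groups compared and 0.312 on all 3 groups.

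Foxa3 (ENSMUSG00000040891, chromosome 7, 18747209 to 18757463), a forkhead factor of gut endoderm from which the liver and intestine form, had the lowest mean FPKM (a level per gene length) of the members in WT, 0.77. It held 1.27, 1.22, 1.25 and 2.59 CPM in WT libraries 24, 25, 26 and 33. FCPG libraries 19, 45 and 46 held 3.32, 17.7 and 2.98 CPM, and FCSPG libraries 13, 27, 30 and 32 held 9.27, 3.28, 1.49 and 6.95 CPM. All FCPG libraries were above all WT libraries, but libraries 19 and 46 were close to WT library 33. The log2 fold change was 2.34 ± 0.72 (SE) for FCPG and 1.73 ± 0.68 (SE) for FCSPG over WT, with edgeR adjusted p of 0.119 and 0.446. The authors' deposited table lists Foxa3 for FCPG with an adjusted p of 0.0106, and for FCSPG with 0.0295. For FCSPG, DESeq2 here gave an adjusted p of 0.0339 on the groups compared and 0.251 on all 3 groups. Without FCPG library 45 the FCPG value was 0.99 ± 0.60 (SE), and FCSPG over FCPG changed from −0.61 to 0.73.

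Foxa1 (ENSMUSG00000035451, chromosome 12, 57587414 to 57593702), a related forkhead factor of the gut tube, notochord and floor plate, did not follow Foxa3. It held 12.8, 10.7, 9.57 and 12.1 CPM in WT libraries 24, 25, 26 and 33, and 10.2, 18.9, 14.0 and 12.9 CPM in FCSPG libraries 13, 27, 30 and 32. FCPG libraries 19, 45 and 46 held 14.0, 22.7 and 2.07 CPM. FCPG therefore contained both the highest and the lowest of the 11 libraries. Over WT, FCPG gave a log2 fold change of 0.20 ± 0.54 (SE) and FCSPG 0.32 ± 0.50 (SE), with edgeR adjusted p of 0.864 and 0.811. The direction in FCPG reversed without library 45, to −0.49 ± 0.54 (SE), and with limma-voom, to −0.32 ± 0.59 (SE). Notochord and node markers summed to 44.1 CPM in FCPG library 45, 85.5 CPM in FCPG library 46 and at least 126 CPM in each other library. T, also a tailbud marker, weighed heavily in this sum, with a mean of 123 CPM in WT. By mean log2 CPM of the 9 genes, FCSPG library 13 (1.01) was also low, near FCPG libraries 45 (0.70) and 46 (0.89). The remaining libraries held 2.50 to 3.04. The part of these markers in the Foxa1 values was not tested.

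Hhex (ENSMUSG00000024986, chromosome 19, 37423258 to 37429179) encodes a homeodomain repressor of anterior endoderm and of early blood and vessel cells. It held 8.21 to 11.1 CPM in WT, 5.28, 12.9 and 13.2 CPM in FCPG libraries 19, 45 and 46, whereas FCSPG libraries ranged from 6.45 to 13.4 CPM. Neither line stood apart from WT, and FCPG library 19 was the lowest of all 11 for Hhex as it was for Sox7. Over WT, Hhex gave a log2 fold change of 0.18 ± 0.34 (SE) in FCPG and −0.052 ± 0.31 (SE) in FCSPG, with edgeR adjusted p of 0.787 and 0.955.

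**Figure D2:**
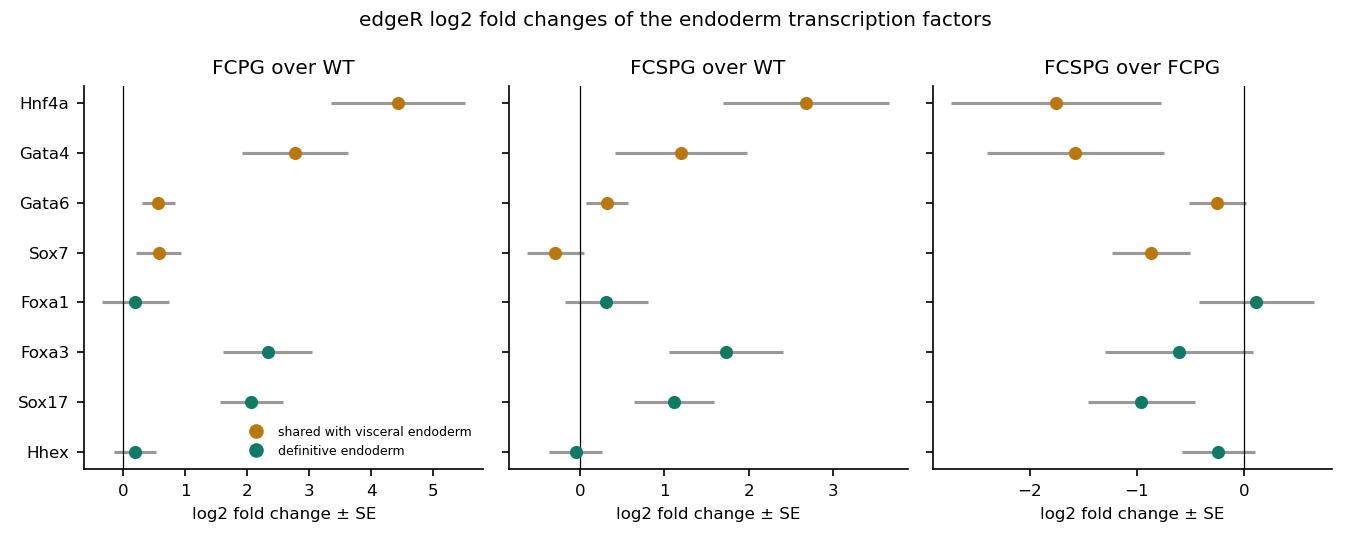
edgeR log2 fold changes with SE bars for the 8 members in the 3 comparisons, coloured by class, with a line at 0. Hnf4a, Gata4, Foxa3 and Sox17 lie farthest to the right in both comparisons with WT, at 2.07 to 4.43 in FCPG, and both classes contain members near 0.

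Set against all genes, the members' values for FCPG over WT were all above 0. The count was 8 of 8, where 50.2% of all tested genes were above 0, with a median log2 fold change of 1.32 against 0.00 over all genes. At a Benjamini-Hochberg adjusted p of 0.05, edgeR called 0 of 8 members and 0 of the 16572 genes (0%), or 4 genes without WT library 33. With no filter on low counts, edgeR called 2 of 8 members higher, Hnf4a (adjusted p = 0.0299) and Sox17 (adjusted p = 0.0315), against 1.16% of 30619 genes, and 0 lower, against 0.153%, with 403 genes called in all. Without adjustment 3624 genes had p under 0.05 in edgeR, while limma-voom called 0 genes and DESeq2 on all 3 groups called 1461. Unadjusted, 4 of 8 members (Hnf4a, Gata4, Foxa3, Sox17) were higher, against 13% of all genes, and 0 lower, against 8.88%. The groups did not overlap, FCPG being higher, in 3 of 8 members (Hnf4a, Foxa3, Sox17) and in 7.57% of all genes, and lower in 0 of 8, against 6.98%. DESeq2 called 4 of 8 members higher, against 5.68% of all genes, and 0 lower, against 2.4%, with adjusted p of 0.00439 for Hnf4a, 0.0407 for Gata4, 0.0141 for Foxa3 and 0.00226 for Sox17. With DESeq2 on the groups compared alone, 3 of 8 members were called higher, against 4.3% of genes, and 0 lower, against 2.43%, and Gata4 was not called (adjusted p = 0.0980). In the authors' deposited table, Hnf4a had an adjusted p of 0.0118 and Gata4 0.0985, so Gata4 missed the threshold there too.

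The number of calls by edgeR was largest when FCPG library 19 was left out, among the single libraries left out in turn. Without it, edgeR called 6 of 8 members higher, against 9.91% of 17045 genes, and 0 lower, against 6.14%, with 2736 genes called in both directions. Hnf4a then had a log2 fold change of 4.90 ± 1.04 (SE) with an edgeR adjusted p of 0.0156, and Sox17 2.38 ± 0.49 (SE) with 0.0149. Sox7 had 0.95 ± 0.23 (SE) with an edgeR adjusted p of 0.0228, and Gata6 0.82 ± 0.23 (SE) with 0.0384. Foxa1 and Hhex remained uncalled, with edgeR adjusted p of 0.924 and 0.262. Leaving out library 45 instead lowered Hnf4a, as above, and brought Gata4 to 2.10 ± 0.88 (SE) and Sox17 to 1.20 ± 0.42 (SE), each with an edgeR adjusted p of 0.447 or 0.454. Library 46 is the FCPG library without Y-linked counts. It held 70.3 CPM of Hnf4a, above every WT library, and 2.07 CPM of Foxa1, below every WT library. A fit of the libraries without Y-linked counts alone had library 46 as the lone FCPG library. Foxa1 there had a log2 fold change of −2.46 over WT, and the spread within FCPG could not be measured.

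For FCSPG over WT, 6 of 8 members were above 0 (49.9% of all genes), with a median of 0.72 against 0.00 over all genes. edgeR called 0 of 8 members and 0% of all genes after adjustment, or 4 genes without WT library 33. Without adjustment 1823 genes had p under 0.05, limma-voom called 0 and DESeq2 on all 3 groups 43. Unadjusted, 3 of 8 members (Hnf4a, Foxa3, Sox17) were higher, against 6.24% of all genes, and 0 lower, against 4.76%. The groups overlapped in each member, FCSPG being higher without overlap in 4% and lower in 3.35% of all genes. DESeq2 on all 3 groups called 0 of 8 members, and 0.123% of the genes it tested higher and 0.107% lower. On the groups compared alone it called 1 of 8 members higher, Foxa3, against 1.74% of genes, and 0 lower, against 0.778%. FCSPG library 30, with the lowest level of visceral endoderm markers in its group, held the lowest FCSPG level of Hnf4a, Gata4, Gata6, Foxa3 and Sox17. This comparison shares its WT libraries with the one above.

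For FCSPG over FCPG, 7 of 8 members were below 0, where 49.2% of all genes were above 0, and Foxa1 was the exception at 0.12 ± 0.54 (SE). The log2 fold change was −1.75 ± 0.98 (SE) for Hnf4a, −1.57 ± 0.83 (SE) for Gata4 and −0.96 ± 0.50 (SE) for Sox17. edgeR called 0 of 8 members and 0% of all genes, while 1897 genes had an unadjusted p under 0.05, limma-voom called 0 and DESeq2 1 (0.00327% higher, 0% lower). The groups overlapped in each member, and lay apart in 2.34% of all genes with FCSPG higher and in 2.33% with FCSPG lower. Without FCPG library 45, Hnf4a was at −0.17 ± 0.96 (SE), Gata4 at −0.91 ± 0.89 (SE) and Sox17 at −0.10 ± 0.42 (SE). Sox7 was the member lower at an unadjusted p under 0.05 (6.67% of all genes), and no member was higher (4.77%). For Sox7, leaving out FCPG library 19 gave a call by edgeR, at −1.24 ± 0.23 (SE; adjusted p = 0.0262; 3.02% of genes called lower and 3.22% higher). The direction of Foxa1 reversed without FCPG library 46, to −0.39, or without FCSPG library 27, to −0.059.

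These classes did not divide the members by how far they moved. For FCPG over WT the median log2 fold change was 1.67 for the 4 members shared with visceral endoderm and 1.13 for the 4 definitive endoderm members. For FCSPG over WT it was 0.76 and 0.71, and for FCSPG over FCPG −1.22 and −0.42. These values depended on FCPG library 45. Without it the FCPG over WT medians were 1.20 and 0.49, and the FCSPG over FCPG medians −0.29 and 0.33, the second with its sign turned. Each class held both wide and narrow members: Hnf4a at 4.43 and Gata6 at 0.57 in the first, Foxa3 at 2.34 and Hhex at 0.18 in the second. With Sox17 and Hhex counted as shared, the FCPG medians were 1.32 for 6 members and 1.27 for the remaining pair. By library, the mean log2 CPM of the shared class ran from 2.54 to 4.71 in WT, 4.53 to 6.86 in FCPG and 4.10 to 5.50 in FCSPG. That of the definitive class ran from 2.50 to 3.23 in WT, 2.96 to 4.84 in FCPG and 3.09 to 3.82 in FCSPG, so that FCPG and WT overlapped in both.

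Levels of different members were compared per length, as the FPKM deposited by the authors (fragments scaled by gene length and library size). In WT the order of mean FPKM was Gata6 (5.38), Gata4 (5.21), Sox7 (4.08), Foxa1 (3.37), Sox17 (3.32), Hhex (1.81), Hnf4a (1.43) and Foxa3 (0.77). Neighbours in this order overlapped in range in each of the 7 steps. Within libraries, Gata4 was above Sox7 in 1 of 4 WT libraries despite its higher mean. Sox7 was above Foxa1, and Sox17 above Hhex, in 4 of 4. In FCPG the order began with Gata4 (35.5 FPKM), Hnf4a (30.7), Sox17 (13.9) and Gata6 (8.02) and ended with Hhex (2.06). In FCSPG it began likewise with Gata4 (11.9), Hnf4a (9.08), Sox17 (7.14) and Gata6 (6.72), and ended with Hhex (1.74). Hnf4a was thus seventh of the 8 genes in WT and second in both lines, although each step between neighbours overlapped in those groups too. CPM per kilobase with the scaling used here gave the same order in each group.

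Ratios of related factors within a library do not depend on its scaling. Gata4 over Gata6, as a ratio of FPKM, was 0.70, 0.45, 0.12 and 2.82 in WT libraries 24, 25, 26 and 33, and 2.07, 5.83 and 4.02 in FCPG libraries 19, 45 and 46. It was 2.00, 1.49, 1.14 and 2.13 in FCSPG libraries 13, 27, 30 and 32. Gata6 thus exceeded Gata4 in 3 of 4 WT libraries and in no mutant library. Sox17 over Sox7 was 0.48 to 1.29 in WT, 1.33 to 2.90 in FCPG and 1.00 to 3.36 in FCSPG. Foxa1 over Foxa3 was 6.17, 5.35, 4.71 and 2.87 in WT libraries 24, 25, 26 and 33, 2.59, 0.79 and 0.42 in FCPG libraries 19, 45 and 46, and 0.68, 3.53, 5.73 and 1.14 in FCSPG libraries 13, 27, 30 and 32. FCPG lay below WT for this ratio without overlap, and FCSPG spanned the range from FCPG to WT.

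**Figure D3:**
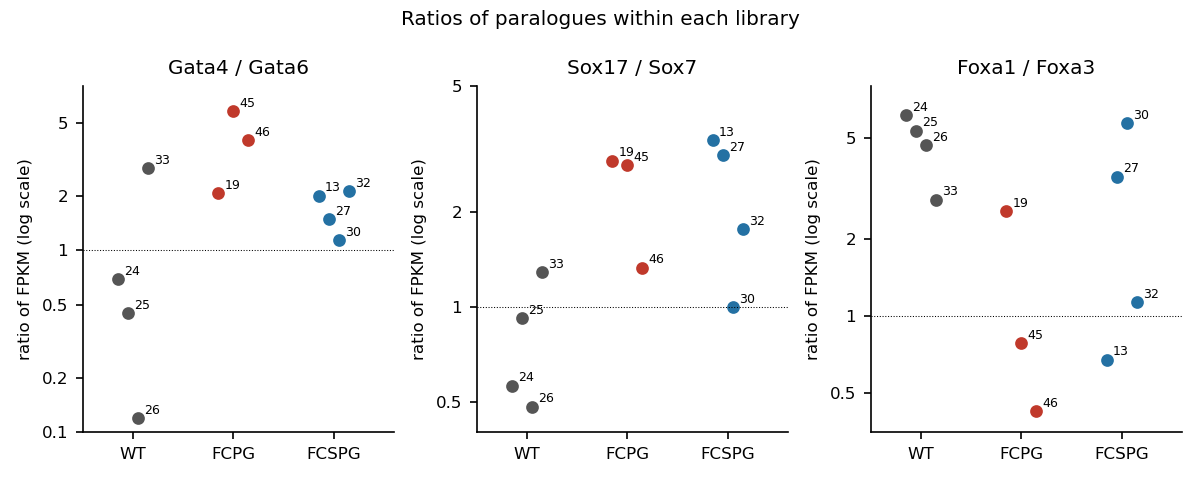
Ratio of the authors' FPKM values of related factors within each library, on log axes, with the library number beside each point and a dotted line at 1. WT library 33 lies nearest to the mutants in each of the 3 ratios, and FCSPG library 30 lies nearest to WT.

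The members separated by how they followed visceral endoderm markers across libraries. Over the 11 libraries, the log2 CPM of Hnf4a had Pearson's r = 0.996 and Spearman's rho = 0.982 with the mean log2 CPM of the 20 markers, none of which is a member. Gata4 had r = 0.958 and rho = 0.964, Sox17 r = 0.935 and rho = 0.945, and Foxa3 r = 0.850 and rho = 0.882. Gata6 had r = 0.544 and rho = 0.727, Sox7 r = 0.372 and rho = 0.300, Hhex r = 0.143 and rho = 0.064, and Foxa1 r = 0.069 and rho = 0.282. Without WT library 26 and FCPG library 45, the farthest from the median marker level, r was 0.993 for Hnf4a, 0.916 for Gata4, 0.929 for Sox17, 0.880 for Foxa3 and 0.895 for Gata6. These are descriptions over libraries that share their scaling and their groups, and 8 members were set against 5 marker lists. Of the other lists, Hhex had its highest r with the 16 endothelial genes (0.635) and Foxa1 with the 17 gut endoderm genes (0.650), which was 0.237 without WT library 26 and FCPG library 46. Sox7 and Gata6 had their highest r with the 10 parietal endoderm genes (0.641 and 0.601). Without FCPG library 45 and FCSPG library 27 these values were 0.288 and 0.353. After the visceral endoderm markers, Gata4 had its highest r with the 13 cardiac and lateral mesoderm genes (0.641). This was 0.812 without FCPG libraries 46 and 19. Sox17, Foxa3 and Hnf4a had theirs with the parietal endoderm genes (0.683, 0.627 and 0.518). Without FCPG library 45 and FCSPG library 27 these were −0.112, −0.065 and −0.169.

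**Figure D4:**
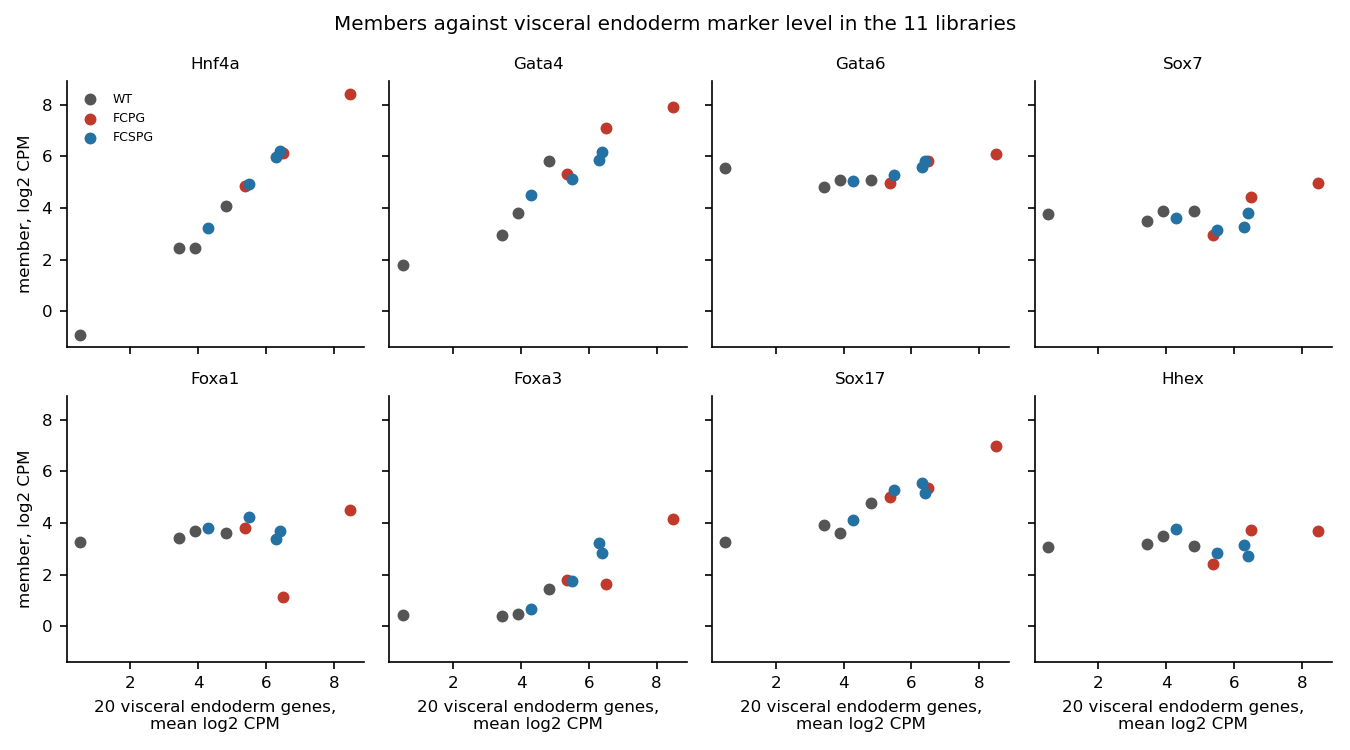
Log2 CPM of each member against the mean log2 CPM of 20 visceral endoderm genes, with 1 point per library coloured by group. Points of the 3 groups run along 1 line for Hnf4a (r = 0.996). Foxa1, Hhex and Sox7 follow the markers less (r = 0.069, 0.143 and 0.372). FCPG library 46 is low for Foxa1, and FCPG libraries 45 and 46 are the highest for Sox7.

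In the order of libraries by summed visceral endoderm markers, every FCPG library lay above every WT library. FCSPG library 30 lay within the WT range, and the other FCSPG libraries within the FCPG range. WT libraries 26, 25 and 24 came first with 181, 568 and 744 CPM, followed by FCSPG library 30 (865), WT library 33 (1276), FCPG library 19 (1734) and FCSPG library 27 (2039). FCSPG libraries 13 and 32 (3650 and 3927), FCPG library 46 (4547) and FCPG library 45 (17406) came last. Hnf4a made up 2.36 to 13.0 CPM per 1000 CPM of these markers in WT, 15.5 to 19.9 in FCPG and 10.7 to 18.9 in FCSPG. Per marker RNA, Hnf4a thus varied less than in CPM, and FCPG still lay above WT. The genes whose pattern was nearest to Hnf4a among 11110 genes with a mean of at least 5 CPM were Apoe, a lipid carrier (r = 0.999), Car7, a carbonic anhydrase (r = 0.998), and Slc39a5, a zinc transporter (r = 0.996). Nearest to Gata4 were Nxf7, Abcc2 and Slc13a4 (r = 0.988, 0.980 and 0.974), and nearest to Sox17 were Slc23a1, Car4 and Slc66a1 (r = 0.983, 0.983 and 0.981). Snx3, Phyh and Ass1 were nearest to Foxa3 (r = 0.984, 0.981 and 0.980) and Ctdsp2, Gosr1 and Ghitm to Gata6 (r = 0.970, 0.956 and 0.942). For the other members the nearest genes were Dgkk for Sox7 (r = 0.955), Klhdc7a for Foxa1 (r = 0.960, and 0.714 without FCPG libraries 45 and 46) and Dedd for Hhex (r = 0.920). Each is the top of a search over 11 libraries and carries no test.

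Among pairs of members, Pearson's r over the 11 libraries was 0.958 for Hnf4a with Gata4, 0.949 for Hnf4a with Sox17, 0.926 for Foxa3 with Sox17 and 0.871 for Hnf4a with Foxa3. It was 0.698 for Sox7 with Hhex. Gata6 had its highest r with Foxa3 (0.740), followed by Sox7 (0.654) and Sox17 (0.651). Without WT library 26 and FCPG library 45, r for Gata6 was 0.867 with Hnf4a and 0.816 with Gata4. Without FCPG libraries 45 and 46 instead, it was 0.647 with Foxa3 and 0.149 with Sox7. Different libraries were left out, so these r values cannot be ranked against each other. Paralogues were less alike, at 0.607 for Gata4 with Gata6, 0.396 for Sox17 with Sox7 and 0.234 for Foxa1 with Foxa3. The libraries are the same for each pair, so these values are descriptions.

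Among 21 tested genes of a list of other endoderm transcription factors, 13 were above 0 and 8 below in FCPG over WT (median 0.10), and none passed edgeR's adjusted test. Unadjusted, 7 were higher and 4 lower (13% and 8.88% of all genes). Eomes, a T-box factor of the primitive streak and visceral endoderm, averaged 0.32 ± 0.19 CPM (SD, n = 4) in WT, 2.43 ± 2.36 CPM (SD, n = 4) in FCSPG and 12.5 ± 18.7 CPM (SD, n = 3) in FCPG. Pdx1, a factor of foregut and pancreas, was 7.76-fold higher in FCPG than in WT, with overlap between the groups. Foxa2, the third FOXA factor, falls outside the naming rule and was added after its values were seen. It ranged from 7.16 to 12.7 CPM in WT, from 7.85 to 15.4 CPM in FCSPG and from 6.44 to 44.1 CPM in FCPG.

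Genes known as targets of HNF4A, taken from textbook knowledge, had values above 0 like Hnf4a. Of 14 tested members of that list, 13 were above 0 in FCPG over WT (median 3.63) and 13 in FCSPG over WT (median 2.28). Unadjusted, 13 were higher in FCPG and 8 in FCSPG (13% and 6.24% of all genes), and 0 passed edgeR's adjusted test in either. Apoa4, an apolipoprotein, was 26.7-fold and F10, a clotting factor, 18.5-fold higher in FCPG, without overlap with WT. Part of this list is also in the visceral endoderm list, so the lists are not separate evidence. The list of gut endoderm genes moved less, with 11 of 17 above 0 in FCPG (median 0.41) and 12 of 17 in FCSPG (median 0.55). Unadjusted, edgeR placed 7 of these genes higher in FCPG and 5 in FCSPG (13% and 6.24% of all genes). In either line 0 were lower (8.88% and 4.76% of all genes). In FCPG, 3 of the 17 lay above WT without overlap and 0 below (7.57% and 6.98% of all genes). They were Spink1, a protease inhibitor, at 10.8-fold, Cldn6 at 3.13-fold and Cdh1 at 2.36-fold. Nepn, a midgut marker, had a lower mean in FCPG than in WT, but the ranges overlapped. Its mean was 29.7 ± 17.1 CPM (SD) over the 4 WT libraries and 54.9 ± 57.7 CPM (SD) over the 4 FCSPG libraries. Over the 3 FCPG libraries it was 6.50 ± 9.88 CPM (SD). Nepn was 1 of 6 genes of the gut list below 0 in FCPG over WT. Others were Shh (mean 5.07 CPM in FCPG, 20.3 CPM in WT) and Cer1 (5.41 and 16.3 CPM), with overlap. Cldn4 (14.1 and 27.4 CPM) and Krt19 (25.7 and 41.6 CPM) were lower too, also with overlap.

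Other tissues make these factors too, and their markers were measured beside them. Of 16 endothelial genes 8 were above 0 in FCPG over WT (median −0.088) and 4 in FCSPG over WT (median −0.51). Of 13 cardiac and lateral mesoderm genes 9 were above 0 in FCPG (median 0.37) and 7 in FCSPG (median 0.067), with summed levels of 396 to 723 CPM in WT, 387 to 1571 CPM in FCPG and 452 to 775 CPM in FCSPG. Unadjusted, 4 of these 13 genes were higher in FCPG than in WT and 1 was lower (13% and 8.88% of all genes). Of the higher ones, Myl7 alone lay above WT without overlap. Nkx2-5, a cardiac factor that partners GATA4, was also among them, with overlapping ranges. Its mean was 2.49 ± 2.93 CPM (SD) over the 3 FCPG libraries and 0.18 ± 0.33 CPM (SD) over the 4 WT libraries. The lower gene was Tbx5, with a mean of 0.51 CPM for FCPG and 2.31 CPM for WT, also with overlap. Of 10 parietal endoderm genes 7 were above 0 in FCPG (median 0.45) and 5 in FCSPG (median −0.014), and the list summed to 3019 CPM in FCPG library 45 and to 1086 to 1565 CPM in the other 10 libraries. Of 8 tested genes for partners and upstream signals of these factors, 6 were above 0 in FCPG (median 0.62). Among them were Bmp2, a ligand, at 2.14-fold, and Zfpm1, which encodes the GATA cofactor FOG1, at 1.96-fold, both overlapping WT. The part of these tissues in the members' values was not tested.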

How the data were processed

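The submitters' processing notes name mm39, HISAT2, featureCounts and DESeq2, with no versions or counting options. The deposited counts are whole numbers and the FPKM values were deposited by the authors for the same libraries. The authors' deposited tables hold log2 fold changes with p-values and list genes with an unadjusted p under 0.05. Their sign was turned to match the direction of each comparison here.

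Columns were matched to genotypes by name, 0 columns were left over, and their numbers are not those of the sample titles, so no pairing was used. Counts were filtered with filterByExpr, scaled by TMM and tested with the quasi-likelihood F test of edgeR 4.0.16 (R 4.3.3), two-sided, 1 term for the 3 groups, with Benjamini-Hochberg adjustment over 16572 genes and a threshold of 0.05. The test was tried on simulated data. CPM uses TMM factors, and log2 CPM a prior count of 2. Total counts per library were at least 16014698, and the common biological coefficient of variation was 0.325. Alternatives were DESeq2 1.42.0, limma-voom (limma 3.58.1), DESeq2 size factors, other filters, only the groups compared and each library left out. The text names the 8 members, up to 4 genes with the smallest p from each of 10 other lists, and up to 3 genes most like each member. Members and lists were chosen with earlier results of these data known. Some genes that this rule names are not reported here.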

Additional observations from a re-analysis of the deposited data

Results flagged for a closer look

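Foxa3 in WT library 33 was at 2.59 CPM, far from the other 3 WT libraries at 1.22 to 1.27 CPM. The gap filled 0.965 of the group's range, above Dixon's critical value for 4 libraries. It was 1 of 16 groups of 4 libraries checked, and chance flags about 1 in 20. WT library 33 also had the highest WT level of visceral endoderm markers, 1276 CPM.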

How the results depend on the processing

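No paired analysis was possible because the columns carry no replicate numbers of the sample titles. The count of genes called for FCPG over WT was 1461 with DESeq2 on all 3 groups, 1200 with DESeq2 on the groups compared, 403 with no filter on low counts (Hnf4a and Sox17 among them) and 144 in libraries without Y-linked counts. For FCSPG over WT it was 43 and 457 with these DESeq2 fits, and for FCSPG over FCPG it was 1 with DESeq2 on all 3 groups and 28 in libraries without Y-linked counts. With 1 library left out it ran from 0 to 2736 (FCPG over WT; 2736 without FCPG library 19 and 4 without WT library 33), 0 to 4 (FCSPG over WT; 4 without WT library 33) and 0 to 1063 (FCSPG over FCPG; 1063 without FCPG library 19). The definitive median for FCSPG over FCPG was 0.18 in libraries without Y-linked counts and ran from −0.75 to 0.33 with 1 library left out, and the shared median from −1.62 to −0.29, the upper ends without FCPG library 45. The definitive median for FCPG over WT ran from 0.49 (without FCPG library 45) to 1.51.

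Foxa1 in FCPG over WT reversed to −0.32 with limma-voom and −2.46 in libraries without Y-linked counts, where Hhex in FCSPG over WT was 0.064 and Foxa3 in FCSPG over FCPG 0.65. With 1 library left out, the ranges that crossed 0 were, for FCPG over WT, −0.49 to 0.70 (Foxa1) and −0.021 to 0.50 (Hhex), for FCSPG over WT −0.32 to 0.064 (Hhex), and for FCSPG over FCPG −0.39 to 0.79 (Foxa1), −1.03 to 0.73 (Foxa3) and −0.49 to 0.0015 (Gata6). The cause was not tested. Of the members' values, 159 with 1 library left out and 178 under other settings kept direction and side of the threshold. Hnf4a, Gata4, Sox7 and Sox17 kept their direction in each alternative run. The 2 alternatives with libraries without Y-linked counts and with DESeq2 on the groups compared were chosen after the data were seen.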
